A study of Homo sapiens with 24 samples.

Results

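The small subunit processome and 40S assembly factors are 58 listed genes whose proteins build the small (40S) ribosomal subunit. They were taken by symbol from the rows of 1 expression table, with no measured value used in the choice. All 58 of 58 were found, out of 60609 gene rows, and all 58 reached 1 TPM in at least 3 libraries and so were among the 16062 genes tested. TPM, the usual per-length unit of RNA-seq, is a gene's share of a fixed total in each library, so levels of different genes can be compared within a library, but a strong rise of other transcripts lowers every remaining gene.

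The RNA came from A549, an established human cell line from a lung adenocarcinoma with an epithelial character. Cells were transfected for 48 h either with a pool of siRNAs against BOP1 (siBOP1) or with an siRNA against firefly luciferase, which has no target in human cells and served as the control (siFLuc). Interferon beta (IFN, 1000 U/mL) was then added to some cultures and others were mock-treated, with RNA taken after 8 or 12 h. Each siRNA, treatment and time combination has 3 libraries of polyadenylated RNA, which makes 8 groups and 24 libraries. All groups were transfected, so none is an untransfected control, and the BOP1 reagent is 1 siRNA pool with no second reagent. The labels do not say whether the libraries of a group came from separate cultures, so p-values measure only the spread between these libraries, which may be technical.

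The 18S rRNA is cut out of a long precursor made in the nucleolus. The UTP-A and UTP-B complexes, the U3 small nucleolar ribonucleoprotein (snoRNP) and the MPP10 complex gather on the 5′ part of the precursor and form the small subunit processome, in which the first cuts and folding steps take place. RNA helicases then take the particle apart, methyltransferases and related enzymes modify the 18S rRNA, and a set of late factors escorts the pre-40S particle to the cytoplasm, where the endonuclease NOB1 makes the last cut. BOP1, the target of the knockdown, belongs to the PeBoW complex of the large (60S) subunit and is not one of the 58 genes.

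Both perturbations were visible in the genes that check them. BOP1 was at 66.4 ± 10.7 TPM (SD, n = 3) in siFLuc mock cells at 8 h and at 18.6 ± 0.75 in siBOP1 mock cells, and in each of the 4 siBOP1 groups all libraries (10.04 to 19.5 TPM) lay below all siFLuc libraries (32.4 to 78.8 TPM). IFIT1, an interferon-stimulated gene, lay between 0.676 and 3.81 TPM in mock libraries and between 553 and 1436 TPM with IFN. The A549 markers KRT8 (2086 to 3803 TPM) and ALDH1A1 (2669 to 4365 TPM) were abundant in every library, while the epithelial marker EPCAM was low (1.92 to 5.48 TPM). Of 7 markers of other cell types, CD3E was listed at 0 throughout, PTPRC, COL3A1, PECAM1 and VWF stayed at or under 0.345 TPM, and COL1A1 ran from 5.37 to 19.3 TPM. CD68 ran from 38.5 to 57.5 TPM in mock libraries and from 170.2 to 402 TPM with IFN, and the summed level of the 7 markers moved with it (50.5 to 72.2 TPM in mock libraries, 178 to 421 TPM with IFN). The part of the CD68 difference in the IFN results below was not tested; PTPRC, the general leukocyte marker, had at most 0.021 TPM.

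The table's columns are numbered 1, 2 and 4 in each group, whereas the labels number replicates up to 3, so the 8 libraries numbered 4 are placed by group only. At 12 h the siFLuc mock library numbered 4 stood apart. Its 10 most abundant genes held 9.5% of its TPM, against 12.3% to 16.2% in the other 12 h libraries, and its 58 assembly factors summed to 4458 TPM, the highest of the 24. The siFLuc IFN library numbered 4 at 12 h had IFIT1 at 553 TPM against 1242 and 1306 TPM in the others of its group. The siBOP1 IFN library numbered 4 at 12 h also had less IFIT1, 841 TPM against 1268 and 1338 TPM. Its 58 assembly factors summed to 3553 TPM, against 3070.05 and 3001 TPM. Fits without that library enter only the leave-out counts and ranges. Calls of members at 12 h that use the siFLuc libraries numbered 4, and medians over all 58, are given below with and without these libraries. A fit without 1 of them keeps the library numbered 4 of the other group, so the groups are then not matched by number.

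Among themselves the 58 genes spanned a wide range of levels. NCL (nucleolin, an abundant nucleolar RNA-binding protein) averaged 652 TPM over the 24 libraries. FBL (fibrillarin, the methyltransferase of box C/D snoRNPs) averaged 459.8 TPM and NOP56, its snoRNP partner, 307 TPM. These 3 genes held 38.6% of the summed TPM of all 58. SNU13, which binds the U3 snoRNA and also the U4 spliceosomal RNA, averaged 123 TPM, and BUD23, an 18S rRNA methyltransferase, 109 TPM. Another 44 members averaged 20 to 100 TPM and 9 averaged less, with a median over all 58 of 33.5 TPM. The lowest were the pre-40S kinase RIOK1 (8.72 TPM), UTP23 (10.6 TPM) and KRI1 (11.5 TPM). The ranges over libraries of NCL (499.8 to 842 TPM) and FBL (372 to 576 TPM) overlapped, but NCL lay above FBL within each of the 24 libraries. The ranges of SNU13 (85.4 to 142 TPM) and BUD23 (81.9 to 128 TPM) also overlapped, and SNU13 lay above BUD23 in most libraries but not in all. NOP56 (224 to 405 TPM) lay above every library of SNU13.

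**Figure D1:**
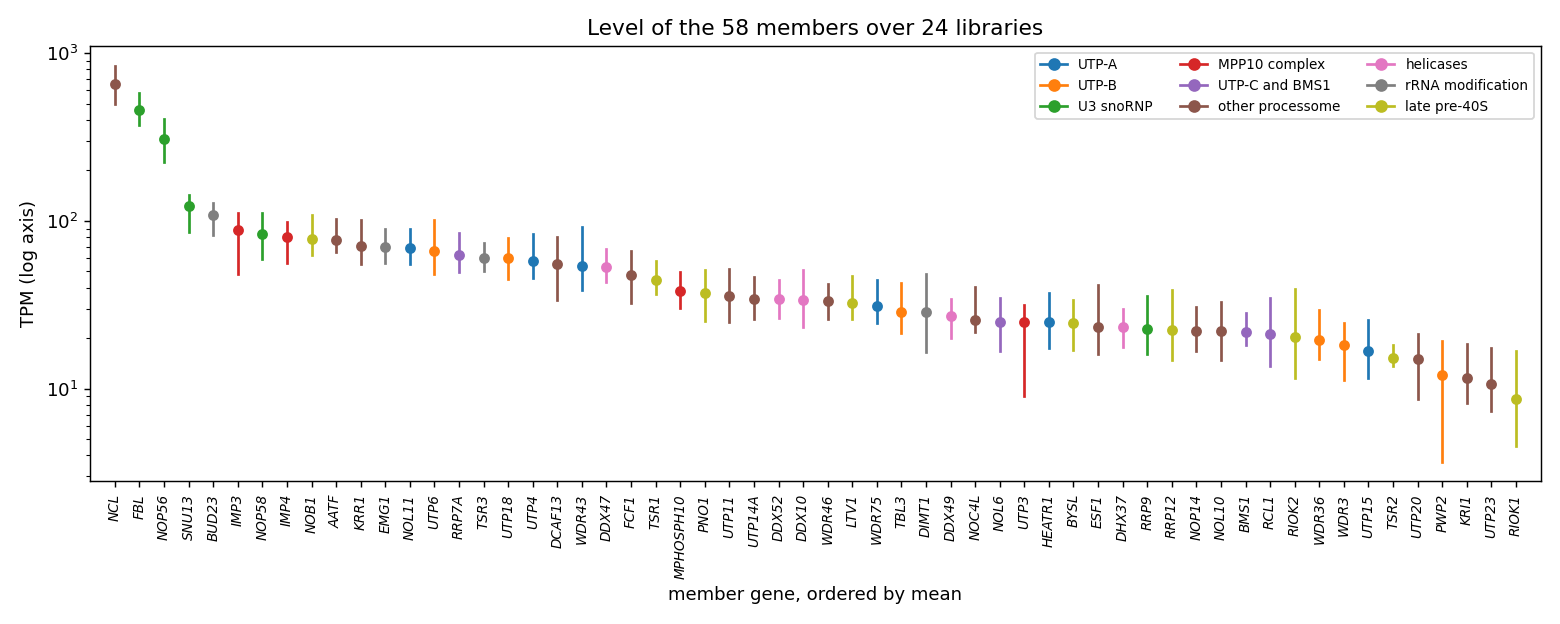
Mean TPM over 24 libraries of the 58 assembly factors, on a logarithmic axis, by role (colour); points are means and lines run from the lowest to the highest library. NCL, FBL and NOP56 stand at the top, with no library of theirs under 224 TPM, and 44 of the 58 means lie between 20 and 100 TPM.

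Summed over the 58 genes, the TPM was 4086 ± 270.2 (SD, n = 3) in siFLuc mock, 3963 ± 159 in siFLuc IFN, 3774 ± 40.3 in siBOP1 mock and 3496 ± 199 in siBOP1 IFN cells at 8 h. At 12 h the sums were 3882 ± 507, 3618 ± 299.9, 3363 ± 68.6 and 3208 ± 301 TPM in the same order. At each time the siFLuc mock mean was the highest and the siBOP1 IFN mean the lowest, while the 3 libraries of neighbouring groups often overlapped. In such bulk samples a lower level in each cell and a smaller share of cells with a high level cannot be told apart.

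Single genes were compared with limma on log2(TPM + 1), fitted to all 16062 genes and 24 libraries, with Benjamini-Hochberg adjustment over all genes and a threshold of 0.05. A call means an adjusted p under that threshold, and a log2 change on this scale understates the change of low genes. Libraries with the same column number deviated from their group means together, and a fit with the number as a block was therefore set beside the fit without it. The block makes more calls, and for the libraries numbered 1 and 2 alone the shared deviation was smaller at 12 h (r = -0.012 to 0.085) than at 8 h (r = 0.091 to 0.156). Without the block, IFN moved few of the 58 genes: 2 were called in siFLuc cells at 8 h (10.8% of all genes), 1 at 12 h (13.5% of all genes), 1 in siBOP1 cells at 8 h (15.1%) and 2 at 12 h (14.8%). As shares of the 58, these are 3.45%, 1.72%, 1.72% and 3.45%, below the share of all genes called in each comparison. With the block 4, 16, 10 and 6 members were called in the same order, against 20.98%, 26.9%, 28.97% and 27.9% of all genes. Every member called in either fit was lower with IFN. The 12 h calls in siFLuc cells changed without either library numbered 4, in fits added after the data were seen. Without the mock one, 9 members were called with the block (24.4% of all genes), 6 lower and UTP6, DDX52 and DHX37 higher, and 5 of the 9 were among the 16. Without the IFN one, 9 were called with the block (22.6% of all genes), all lower, and 8 were among the 16.

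DCAF13 (ENSG00000164934.14, chromosome 8, 103414714 to 103443453 in GENCODE 29 on GRCh38), a WD-repeat protein of the processome that is also a substrate receptor of CUL4 ubiquitin ligases, fell with IFN in all 4 comparisons. At 8 h it was at 78.2, 71.5 and 80.3 TPM in siFLuc mock libraries numbered 1, 2 and 4 and at 48.8, 48.2 and 62 TPM with IFN. In siBOP1 cells at 8 h it was at 72, 66.8 and 66.7 TPM in mock and at 44.9, 40.9 and 64.2 TPM with IFN. The groups do not overlap in either pair, though the siBOP1 IFN library numbered 4 comes within a few TPM of mock. At 12 h the siFLuc libraries were at 62.4, 60.8 and 45.2 TPM in mock and at 42.5, 39 and 37.5 TPM with IFN. The siBOP1 libraries at 12 h were at 56.8, 61.4 and 65.2 TPM in mock and at 37.5, 34 and 42.7 TPM with IFN. Again no IFN library reached a mock library, and the mean was 27% to 37.8% lower over the 4 comparisons. The log2 changes of DCAF13 were -0.53 (SE 0.15, limma adjusted p = 0.0203) and -0.48 (SE 0.15, adjusted p = 0.0322) in siFLuc cells at 8 and 12 h. They were -0.47 (SE 0.15, adjusted p = 0.0321) and -0.67 (SE 0.15, adjusted p = 0.00266) in siBOP1 cells.

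Of these 4 calls of DCAF13 by limma, that in siBOP1 cells at 12 h held in 9 of 9 other settings and in 6 of 6 fits without 1 library. The call in siFLuc cells at 8 h held in 8 of 9 settings and 2 of 6 such fits, that at 12 h in 6 of 9 and 2 of 6, and that in siBOP1 cells at 8 h in 5 of 9 and 1 of 6. A median-of-ratios rescaling, which aligns the middle of the expression distribution of all libraries, ended the first 3 calls (adjusted p = 0.0884 and 0.0886 in siFLuc cells, 0.231 in siBOP1 cells at 8 h) and left the fourth (adjusted p = 0.0119). The annotation lists 3 DCAF13 pseudogenes, and how reads shared with them were assigned is not given in the sources used here. Without the siFLuc mock library numbered 4, the change in siFLuc cells at 12 h was -0.62 (adjusted p = 0.00641), and without the siFLuc IFN library numbered 4 it was -0.44 (adjusted p = 0.0806), which is no call.

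TSR3, the enzyme that adds an aminocarboxypropyl group to 18S rRNA, fell with IFN in 2 of the 4 comparisons. At 8 h the siFLuc libraries were at 61.7, 64.2 and 70.1 TPM in mock and at 50.4, 56.1 and 50.8 TPM with IFN (log2 change -0.31, SE 0.09, limma adjusted p = 0.0304). At 12 h the siBOP1 libraries were at 63.5, 63.4 and 67.9 TPM in mock and at 52.7, 53.9 and 52.4 TPM with IFN (log2 change -0.29, SE 0.09, limma adjusted p = 0.0377). Neither pair of groups overlaps. The other changes of TSR3 with IFN, -0.20 in siFLuc cells at 12 h and -0.17 in siBOP1 cells at 8 h, did not pass the test. Both calls rest on 3 libraries a side: the first held in 2 of 6 and the second in 0 of 6 fits without 1 library, and median-of-ratios rescaling ended both. Exons of TSR3 overlap BAIAP3 on the opposite strand over 16.3% of their bases, and while the library kit keeps strand, whether counting used it is not given in the sources used here.

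**Figure D2:**
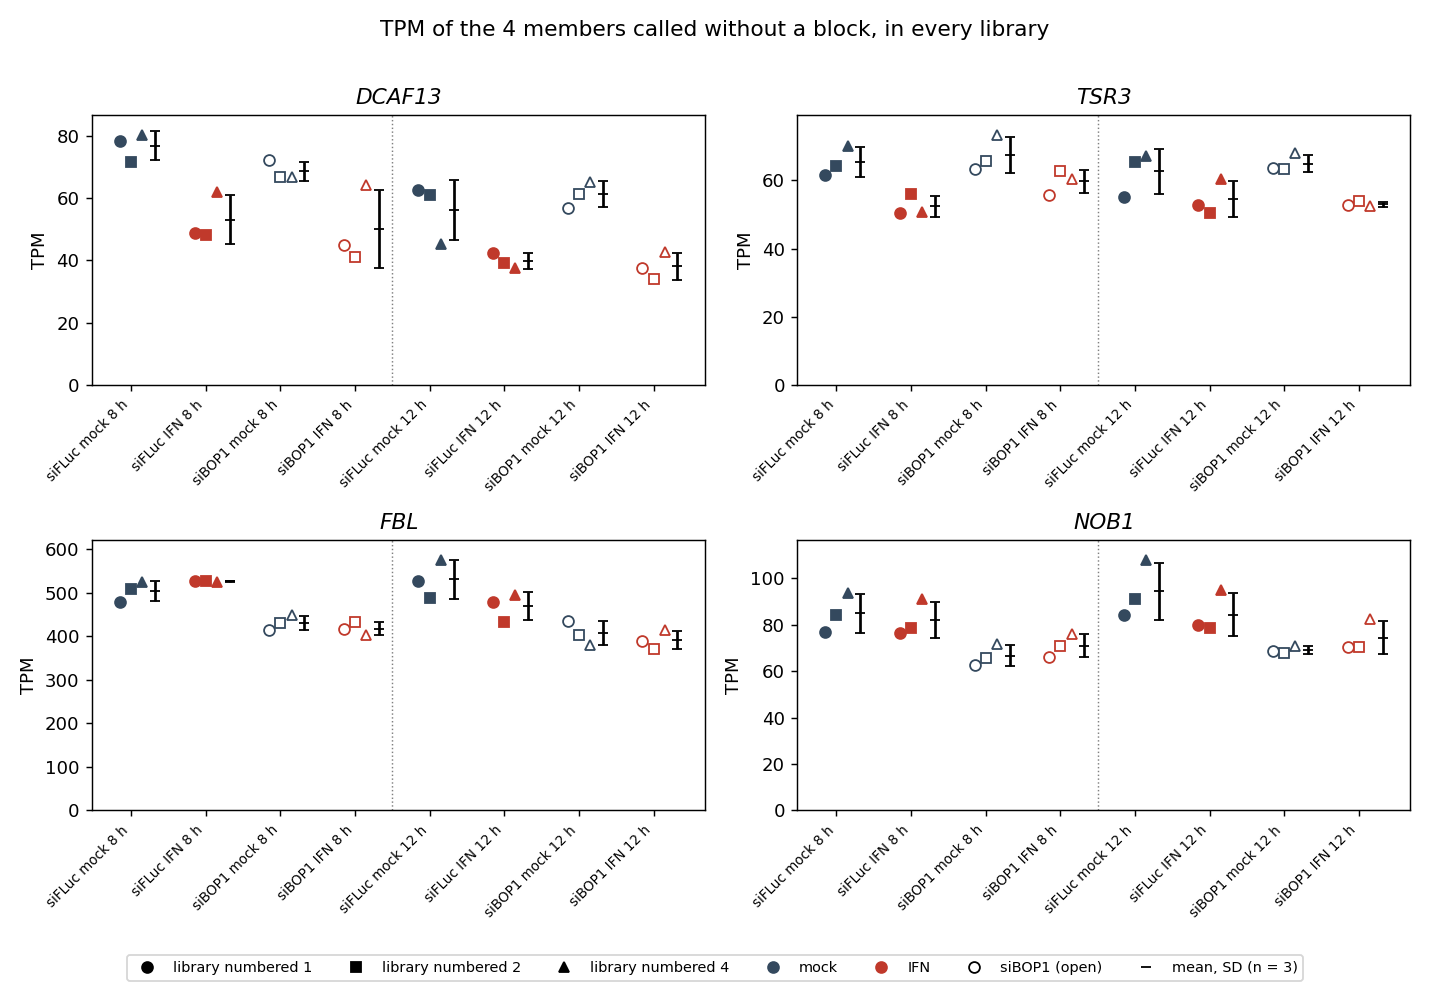
TPM of DCAF13, TSR3, FBL and NOB1 in all 24 libraries, by group; shape gives the column number, colour the treatment and open symbols siBOP1, with bars for mean and SD of 3 libraries. DCAF13 lies lower with IFN in each pair of groups, and FBL and NOB1 lie lower in siBOP1 mock than in siFLuc mock cells at both times.

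Of the other enzymes that modify 18S rRNA, DIMT1, which dimethylates adjacent adenosines near the 3′ end, was at 24.2, 26.4 and 38.7 TPM in siBOP1 mock cells at 12 h and at 17, 16.6 and 24 TPM with IFN. Its log2 changes with IFN were -0.48, -0.50, -0.15 and -0.60 (siFLuc 8 and 12 h, siBOP1 8 and 12 h), with adjusted p = 0.206, 0.159, 0.712 and 0.0836 without the block. With the block limma gave 0.00708, 0.0044, 0.361 and 0.00115, which are calls in 3 comparisons. In each pair of same-numbered 12 h libraries DIMT1 was lower with IFN, and its libraries numbered 4 were the highest in 8 of 8 groups. Without the siFLuc mock library numbered 4 its 12 h change in siFLuc cells was -0.28 (adjusted p = 0.483; 0.0253 with the block), and without the siFLuc IFN one -0.65 (adjusted p = 0.0883; 0.0273 with the block). BUD23 changed by -0.06 to 0.10 and EMG1, a pseudouridine methyltransferase, by -0.03 to 0.10, with no call in either fit. Exons of EMG1 overlap LPCAT3 on the opposite strand over 49.5% of their bases.

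In the UTP-A complex, which binds the precursor first, all 6 members lay below 0 with IFN in siFLuc cells at both times and in siBOP1 cells at 8 h, and none was called without the block. Most of all genes tested also lay below 0 in these comparisons, as given below. In siFLuc cells at 12 h UTP4 (0.01), WDR43 (0.01) and WDR75 (0.06) lay above 0 without the mock library numbered 4 and without the block. With the block these were -0.06, -0.13 and 0.02. HEATR1, its large scaffold, was at 30.9, 23.6 and 25.9 TPM in siBOP1 mock cells at 8 h and at 21.3, 18.6 and 18 TPM with IFN. That difference of -0.45 (SE 0.17) had an adjusted p of 0.078 without and 0.00465 with the block. HEATR1, UTP15 and NOL11 were each called in 2 IFN comparisons with the block. Of their calls in siFLuc cells at 12 h, those of HEATR1 and NOL11 were lost without either library numbered 4 (adjusted p = 0.109 and 0.056 for HEATR1, 0.0843 and 0.104 for NOL11), and that of UTP15 held (0.0173 and 0.00656). WDR43 had the smallest mean change of the complex, -0.08. HEATR1 shares 23.2% of its exon bases with LGALS8 on the opposite strand.

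The UTP-B complex was mixed. Its medians with IFN were -0.03, -0.10, -0.16 and 0.11, and no member was called in either fit with all libraries. WDR3 had the lowest mean change (-0.21) and UTP6 the highest (0.13), with UTP6 above 0 in all 4 IFN comparisons. PWP2, a scaffold of this complex, showed a large change in siBOP1 cells at 8 h (-0.64, SE 0.27, adjusted p = 0.127), which came mostly from 1 library: with IFN it was at 9.04, 9.43 and 3.67 TPM, against 11.1, 10.1 and 12.7 TPM in mock.

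The MPP10 complex, which joins the U3 snoRNA to the precursor, had medians of -0.17, -0.30, -0.21 and -0.10 with IFN and no call without the block. IMP4 was called with the block in 3 comparisons, at -0.29 in siFLuc 12 h, -0.27 in siBOP1 8 h and -0.29 in siBOP1 12 h. Its siFLuc call was lost without the mock (adjusted p = 0.0511) or the IFN library numbered 4 (adjusted p = 0.0582). IMP3 was called with the block in siFLuc cells, at -0.33 at 8 h and -0.32 at 12 h, and changed by -0.12 and -0.01 in siBOP1 cells, a difference that the interaction test did not call. At 12 h IMP3 was at 96.7 and 100.2 TPM in the siFLuc mock libraries numbered 1 and 2 but at 62.8 TPM in the library numbered 4, and at 81.2, 79.6 and 48.1 TPM with IFN. Within each number IFN was lower, yet the groups overlap, and the 12 h block call held without either library numbered 4 (adjusted p = 0.00908 and 0.00916). IMP3 exons overlap SNX33 on the opposite strand over 31.2% of their bases.

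Among the 4 genes around the BMS1 GTPase, RCL1, its partner at an early cleavage site, was called with the block in 3 IFN comparisons (-0.28, -0.23 and -0.27 in siFLuc 12 h, siBOP1 8 h and siBOP1 12 h), the first also without either library numbered 4 (adjusted p = 0.0422 and 0.0404). RRP7A had the highest mean change of this group, 0.09. The 5 helicases made no call with IFN in either fit with all libraries. DDX52 had the highest mean IFN change of all 58 members (0.15) and DHX37, which releases U3 from the pre-rRNA, was at 0.12. DDX52 in siBOP1 cells at 8 h was at 31.1, 29.3 and 32.5 TPM in mock and at 34.7, 34.9 and 36.5 TPM with IFN, without overlap. That change was 0.19 (adjusted p = 0.416), and after median-of-ratios rescaling 0.34 (adjusted p = 0.0429), the only member called higher with IFN in that setting. DDX49 had the lowest mean IFN change of the helicases, -0.15.

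Of the 9 late pre-40S factors, none was called with IFN without the block. RIOK1, whose kinase acts on cytoplasmic pre-40S particles, was at 9.87, 9.48 and 9.71 TPM in siBOP1 mock cells at 8 h and at 6.57, 6.85 and 7.1 TPM with IFN. These groups do not overlap, with a change of -0.45 (SE 0.27, adjusted p = 0.293; 0.0202 with the block). In siFLuc cells RIOK1 changed by -0.01 at 8 h and by -0.51 at 12 h (adjusted p = 0.228; 0.00946 with the block). Without the siFLuc mock library numbered 4 the 12 h change was -0.18 (adjusted p = 0.704; 0.0615 with the block), and without the IFN one -0.76 (adjusted p = 0.0718; 0.031 with the block). NOB1 had the highest mean IFN change of the late factors, 0.00. Among the other processome proteins UTP11 (-0.30) and NOL10 (-0.27) followed DCAF13 in mean IFN change, with no call without the block, and UTP23 had the highest, 0.06. Of the U3 snoRNP proteins RRP9 had the lowest mean IFN change (-0.17) and FBL the highest (-0.05).

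**Figure D3:**
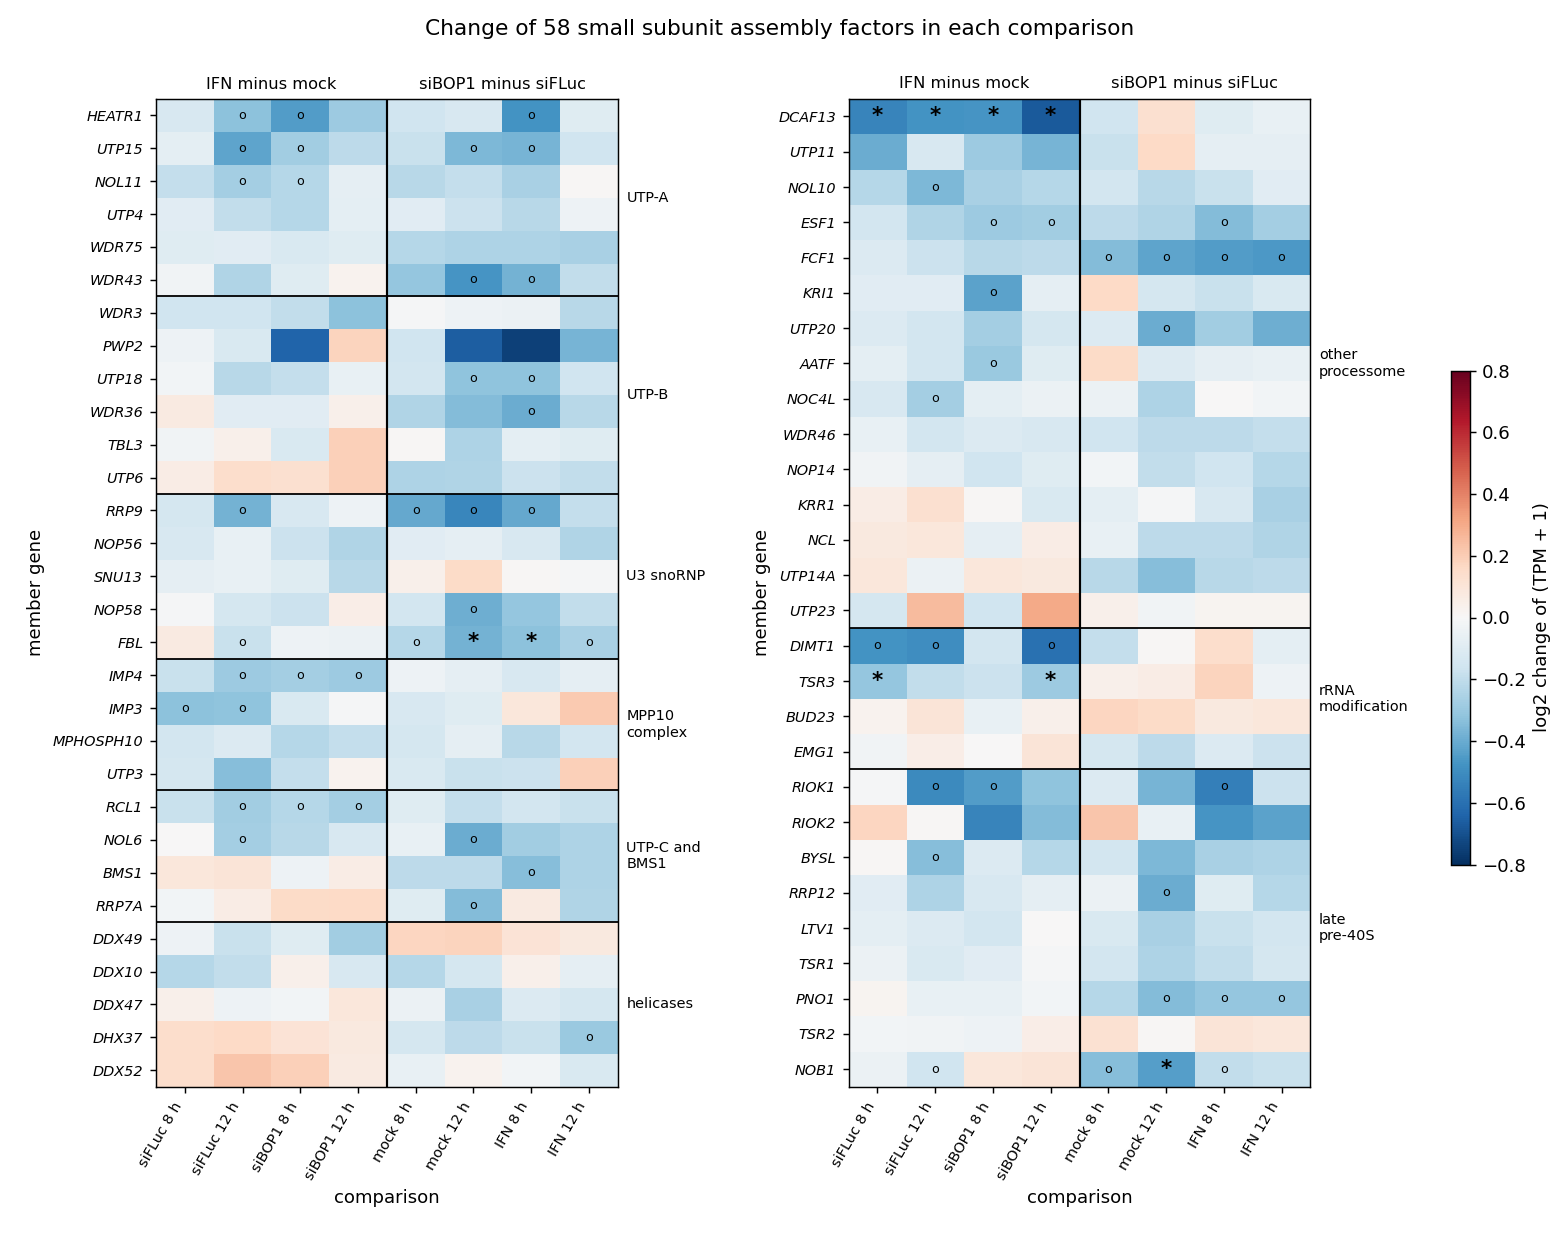
Log2 change of (TPM + 1) of each of the 58 members in 8 comparisons, grouped by role; blue is lower and red higher in the first group named. Asterisks mark calls without the block and circles further calls with it, and every marked cell is blue.

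Over all 58 genes the median changes with IFN were -0.07 and -0.15 in siFLuc cells at 8 and 12 h and -0.14 and -0.07 in siBOP1 cells, beside -0.09, -0.06, -0.14 and -0.08 over all genes. Below 0 were 44, 46, 50 and 38 of 58, that is 75.9%, 79.3%, 86.2% and 65.5%, beside 64.4%, 57.9%, 69.2% and 60.2% of all genes. In siFLuc cells at 12 h the libraries numbered 1, 2 and 4, taken singly, had 40, 36 and 51 members below 0. These signs depend on the scale: after median-of-ratios rescaling the medians were 0.02, -0.09, 0.01 and 0.00, so that the direction at 8 h turned, and 23, 43, 27 and 29 members lay below 0. Without the siFLuc mock library numbered 4, the 12 h median in siFLuc cells was 0.01 and 3 members were called without the block (13.7% of all genes): DCAF13, lower, and UTP6 (0.45, limma adjusted p = 0.0285) and DDX52 (0.45, adjusted p = 0.00764), both higher. Without the siFLuc IFN library numbered 4 it was -0.22 and 3 were called (14.9%), UTP15 (-0.56), RRP9 (-0.59) and BYSL (-0.45), all lower. Each of these fits keeps the library numbered 4 on 1 side only. Within pairs of 1 number this median was -0.11, -0.10 and -0.23. The library numbered 4 was the highest in 8 of 8 groups for UTP6 and in 7 of 8 for DDX52. Groups in which every IFN library lay below every mock library were found for 6, 2, 21 and 5 members, beside 18.9%, 15.1%, 26.7% and 19.2% of all genes. Over the 4 comparisons 32 members lay below 0 each time and 3, UTP6, DDX52 and DHX37, above 0 each time. The shares of all genes that did so were not computed. The pairs of libraries with 1 column number did not move alike: in siBOP1 cells at 12 h the median was -0.16 and -0.13 for numbers 1 and 2 and 0.10 for number 4.

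In siBOP1 cells most of the 58 genes lay slightly lower than in siFLuc cells, and few passed the test. Without the block 0 members were called by limma in mock cells at 8 h (2.16% of all genes), 2 in mock cells at 12 h (1.60%), 1 in IFN cells at 8 h (2.005%) and 0 in IFN cells at 12 h (0.660%). The called shares of the 58 were 0%, 3.45%, 1.72% and 0%. At an unadjusted p under 0.05, 5, 18, 12 and 6 members were lower and 0 higher, beside 12.9%, 12.8%, 13.6% and 8.99% of all genes in either direction. The members' share was the smaller one in mock cells at 8 h and the larger one in the other comparisons. With the block 4, 13, 13 and 4 members were called, against 8.49%, 7.66%, 8.81% and 3.77% of all genes, and each one was lower in siBOP1 cells. These are 6.9%, 22.4%, 22.4% and 6.9% of the 58. Without the siFLuc mock library numbered 4, 5 of the 13 in mock cells at 12 h were called with the block (RRP7A, RRP9, FBL, NOB1 and FCF1; 4.02% of all genes), and 1, FBL, without it (1.10%). Without the siFLuc IFN library numbered 4, 0 members were called in IFN cells at 12 h with the block (0.872%) or without it (0.274%).

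FBL (ENSG00000105202.9, chromosome 19, 39834458 to 39846414, minus strand) was called in 2 of the 4 siBOP1 comparisons. In mock cells at 12 h it was at 527, 488 and 576 TPM with siFLuc and at 436, 404 and 381 TPM with siBOP1 (log2 change -0.38, SE 0.07, limma adjusted p = 0.00928). In IFN cells at 8 h it was at 528, 527 and 526 TPM with siFLuc and at 416, 434 and 404 TPM with siBOP1 (log2 change -0.33, SE 0.07, limma adjusted p = 0.0176). The remaining pairs were at 479, 509 and 524 against 414, 430.2 and 448 TPM in mock cells at 8 h and at 478, 433 and 496 against 389.6, 372 and 415 TPM in IFN cells at 12 h. In all 4 pairs every siBOP1 library lay below every siFLuc library. Those last 2 changes, -0.23 and -0.26, had adjusted p = 0.126 and 0.137 without and 0.0267 and 0.0242 with the block, the latter 0.143 without the siFLuc IFN library numbered 4. Without the siFLuc mock library numbered 4 the 12 h mock change was -0.32 (adjusted p = 0.042), and it passed the threshold in 5 of 6 fits without 1 library, failing without the siBOP1 mock library numbered 4 (adjusted p = 0.0691). The call in IFN cells at 8 h did so in 1 of 6. Of 9 other settings the 12 h mock call held in 7. It failed in the limma fit of only the groups compared (adjusted p = 0.248) and with the libraries numbered 1 and 2 only (adjusted p = 0.0628). The call in IFN cells held in 8 of 9, failing in the fit of only the groups compared (adjusted p = 0.111).

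NOB1 (ENSG00000141101.13, chromosome 16, 69741867 to 69754940, minus strand), the endonuclease that frees the 3′ end of 18S rRNA, was called in mock cells at 12 h. It was at 84.2, 90.9 and 108 TPM with siFLuc and at 68.8, 67.7 and 70.9 TPM with siBOP1, without overlap (log2 change -0.44, SE 0.11, limma adjusted p = 0.0426). At 8 h in mock cells it was at 76.8, 84.2 and 93.6 against 62.8, 65.6 and 71.8 TPM, also without overlap, with an adjusted p of 0.116 without and 0.00149 with the block. The 12 h call was lost without the siFLuc mock library numbered 4 (log2 change -0.34, adjusted p = 0.173) and held in 1 of 6 fits without 1 library. NOB1 exons overlap an antisense gene over 20.2% of their bases.

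FCF1, RRP9 and PNO1 were called with the block in 3 or 4 siBOP1 comparisons and in none without it. FCF1, a PIN-domain protein of the processome, was at 58.7, 54.6 and 56.8 TPM in siFLuc and at 45.5, 46.1 and 41.5 TPM in siBOP1 mock cells at 8 h. In mock cells at 12 h it was at 54.3, 53.3 and 65.8 against 41.7, 42 and 44.7 TPM, and in IFN cells at 8 h at 58.6, 47.2 and 51.9 against 39.2, 35 and 39.9 TPM. These 3 pairs do not overlap. The fourth, at 49.1, 43.9 and 61.7 against 33.6, 32.2 and 46.1 TPM in IFN cells at 12 h, does. Changes of FCF1 ran from -0.46 to -0.35, with adjusted p from 0.0815 to 0.213 without and from 0.00283 to 0.0141 with the block. Without the siFLuc library numbered 4 the block gave an adjusted p of 0.0184 in mock and 0.0523 in IFN cells at 12 h. The annotation lists 10 FCF1 pseudogenes, so reads may be split between copies.

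RRP9, the U3-specific protein of the snoRNP, was at 25.9, 24.5 and 35.7 TPM in siFLuc and at 22.1, 18.2 and 23.1 TPM in siBOP1 mock cells at 8 h. At 12 h in mock cells it was at 24.4, 23.7 and 35.2 against 17.8, 18.3 and 20.3 TPM. Its siBOP1 changes were -0.41, -0.52, -0.41 and -0.19 (mock 8 and 12 h, IFN 8 and 12 h), called with the block in the first 3. PNO1, the partner that holds NOB1 on the particle, was at 35.1, 33.3 and 47.3 TPM in siFLuc and at 27.8, 30.2 and 30.9 TPM in siBOP1 mock cells at 12 h. Its changes were -0.23, -0.35, -0.31 and -0.31, called with the block in the last 3. For RRP9 and PNO1 the libraries numbered 4 were the highest in 8 of 8 groups. The siBOP1 change in mock cells at 12 h, without the siFLuc mock library numbered 4, was -0.34 for RRP9 (adjusted p = 0.555; 0.0368 with the block) and -0.20 for PNO1 (adjusted p = 0.677; 0.1 with the block). The 12 h block call of PNO1 in IFN cells was lost without the siFLuc IFN library numbered 4 (adjusted p = 0.186).

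Promoter sequence is shown for the 5 members called with the block in at least 3 of the siBOP1 comparisons, FBL, FCF1, NOB1, PNO1 and RRP9. A match of letters is a description and does not show binding. Each line runs 5′ to 3′ on the gene's strand, from 120 bases before to 20 bases after the RefSeq start (GRCh38.p14). Capitals mark the E-box CACGTG or, in NOB1, the overlapping copies on both strands of GCATGCGC, part of the motif named for NRF1. The windows are chr19:39846360-39846499 (minus) for FBL, chr14:74713024-74713163 (plus) for FCF1, chr16:69754907-69755046 (minus) for NOB1, chr2:68157768-68157907 (plus) for PNO1 and chr3:51941885-51942024 (minus) for RRP9.
FBL: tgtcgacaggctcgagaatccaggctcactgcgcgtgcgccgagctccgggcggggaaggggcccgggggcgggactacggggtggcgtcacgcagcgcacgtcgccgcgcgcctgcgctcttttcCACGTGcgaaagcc
FCF1: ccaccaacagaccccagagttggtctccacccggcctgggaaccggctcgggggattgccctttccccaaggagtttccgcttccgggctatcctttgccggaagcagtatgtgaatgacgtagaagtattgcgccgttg
NOB1: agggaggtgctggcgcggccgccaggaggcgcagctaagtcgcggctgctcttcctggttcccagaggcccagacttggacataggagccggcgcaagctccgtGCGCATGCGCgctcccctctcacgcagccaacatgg
PNO1: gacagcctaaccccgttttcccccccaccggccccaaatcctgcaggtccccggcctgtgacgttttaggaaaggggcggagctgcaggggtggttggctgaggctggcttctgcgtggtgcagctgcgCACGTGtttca
RRP9: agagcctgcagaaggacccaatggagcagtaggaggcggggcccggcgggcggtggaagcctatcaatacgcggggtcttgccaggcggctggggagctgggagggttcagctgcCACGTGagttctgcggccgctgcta
In these windows the E-box of RRP9 begins 5 bases before the start, and those of FBL and PNO1 begin at positions 7 and 10 after it. FCF1 holds neither capitalised motif but has CCGGAAG on either strand 40 and 22 bases before the start.

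Over the full windows of 300 bases (250 before to 50 after the start), 49 of 58 members had a promoter in the table. CACGTG was in 21 of these 49 (42.9%), beside 12.63% of the 10989 tested genes with a promoter. GCATGCGC was in 4 (8.2%, beside 6.42%), CCGGAAG, the core of ETS factor sites, in 19 (38.8%, beside 21.95%) and TATAAA in 3 (6.1%, beside 8.49%), each searched on both strands. The mean siBOP1 change had a median of -0.24 over the 21 members with CACGTG and of -0.15 over the 28 without. For the mean IFN change the medians were -0.15 and -0.13. The siBOP1 medians with and without the other motifs were -0.26 and -0.18 for GCATGCGC, -0.19 and -0.17 for CCGGAAG, and -0.18 and -0.18 for TATAAA. Among the members with CACGTG were FBL, RRP9, PNO1, WDR43 and PWP2. Also among them were IMP4, AATF, TSR2 and TSR3, whose mean siBOP1 changes lay near or above 0 (-0.08, -0.02, 0.08 and 0.06). These shares and medians are given with no test.

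The U3 snoRNP proteins did not all go with FBL and RRP9. NOP58 was lower without overlap in 3 of 4 comparisons (-0.39 in mock cells at 12 h, -0.31 and -0.20 in IFN cells), with 1 call with the block. That call, in mock cells at 12 h, was lost without the siFLuc mock library numbered 4 (change -0.22, adjusted p = 0.482; 0.272 with the block). NOP56 changed by -0.24 to -0.07 and SNU13 by -0.01 to 0.15, and neither was called in either fit. NCL changed by -0.24 to -0.06 with no call. In UTP-A, all 6 members lay below 0 in 3 of the comparisons and 5 in IFN cells at 12 h, and WDR43 had the lowest mean siBOP1 change (-0.34) of that complex. In mock cells at 12 h UTP4 was at 0.04 without and at -0.03 with the block when the siFLuc mock library numbered 4 was left out. WDR43 was at 54.3, 54.1 and 91.9 TPM in siFLuc and at 48, 40.6 and 50.7 TPM in siBOP1 mock cells at 12 h, where the number 4 library alone is far above the rest. Without it the change was -0.22 (adjusted p = 0.694; 0.108 with the block).

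All 6 UTP-B members lay below 0 in mock cells at 12 h and in IFN cells at both times. Without the siFLuc mock library numbered 4, UTP6 (0.06) and WDR3 (0.14) lay above 0 in mock cells at 12 h without the block. With the block they were at -0.04 and -0.02 in that comparison. PWP2 had the lowest mean siBOP1 change of the 58, -0.49, with no call in either fit. It was at 15.8, 14 and 19.3 TPM in siFLuc and at 11.1, 13.7 and 6.21 TPM in siBOP1 mock cells at 12 h, and the change by number was -0.47, -0.03 and -1.49. WDR36, a partner of PWP2, had a mean siBOP1 change of -0.30. Late pre-40S factors had medians of -0.12, -0.35, -0.20 and -0.18. The second of these, in mock cells at 12 h, was -0.15, -0.14 and -0.60 by number, so its size came mostly from the libraries numbered 4. The rRNA-modifying enzymes had medians near 0 (-0.05, 0.03, 0.11 and -0.06) and the MPP10 complex of -0.12, -0.09, -0.15 and 0.06. For the MPP10 complex the median by number in mock cells at 12 h was 0.05, -0.03 and -0.32. These groups hold 4 to 9 genes each, and differences between groups were not tested.

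A few members were level or higher in siBOP1 cells. DDX49, TSR2 (which delivers a small subunit protein to the particle) and BUD23 lay above 0 in all 4 comparisons. BUD23 was at 104, 103 and 114 TPM in siFLuc and at 128, 116 and 117 TPM in siBOP1 mock cells at 8 h, without overlap. Its changes were 0.17, 0.15, 0.08 and 0.09, those of DDX49 0.17, 0.18, 0.11 and 0.08, and those of TSR2 0.12, 0.01, 0.10 and 0.09, with no call in either fit. TSR3, which fell with IFN, changed by -0.04 to 0.18 with siBOP1.

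Over all 58 genes the siBOP1 medians were -0.13 and -0.21 in mock cells at 8 and 12 h and -0.18 and -0.17 in IFN cells, beside 0.03, 0.00, -0.01 and -0.01 over all genes. Below 0 were 48, 49, 47 and 51 of 58 members (82.8%, 84.5%, 81% and 87.9%), beside 44.3%, 49.2%, 52.1% and 52.4% of all genes. For the libraries numbered 1, 2 and 4 taken singly, 45, 38 and 50 members lay below 0 in mock cells at 12 h. In IFN cells at 12 h these counts were 49, 47 and 47. In all 4 comparisons 38 members were below 0, and the share of all genes that were was not computed. The mock and IFN comparisons use different libraries. Median-of-ratios rescaling gave -0.18, -0.22, -0.16 and -0.16, so the direction did not turn with this scaling. Members with every siBOP1 library below every siFLuc library numbered 13, 19, 24 and 6, beside 7.70%, 7.55%, 9.92% and 5.61% of all genes. The size at 12 h in mock cells depended on 1 library: the median by number was -0.10, -0.08 and -0.54, and without the siFLuc mock library numbered 4 it was -0.06 with 1 member called. In IFN cells at 12 h the median by number was alike, at -0.19, -0.13 and -0.18. There it was -0.06 without the siFLuc IFN library numbered 4, in a fit that keeps the siBOP1 IFN library of that number. With the libraries numbered 1 and 2 only, the 4 medians were -0.07, -0.10, -0.18 and -0.16.

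**Figure D4:**
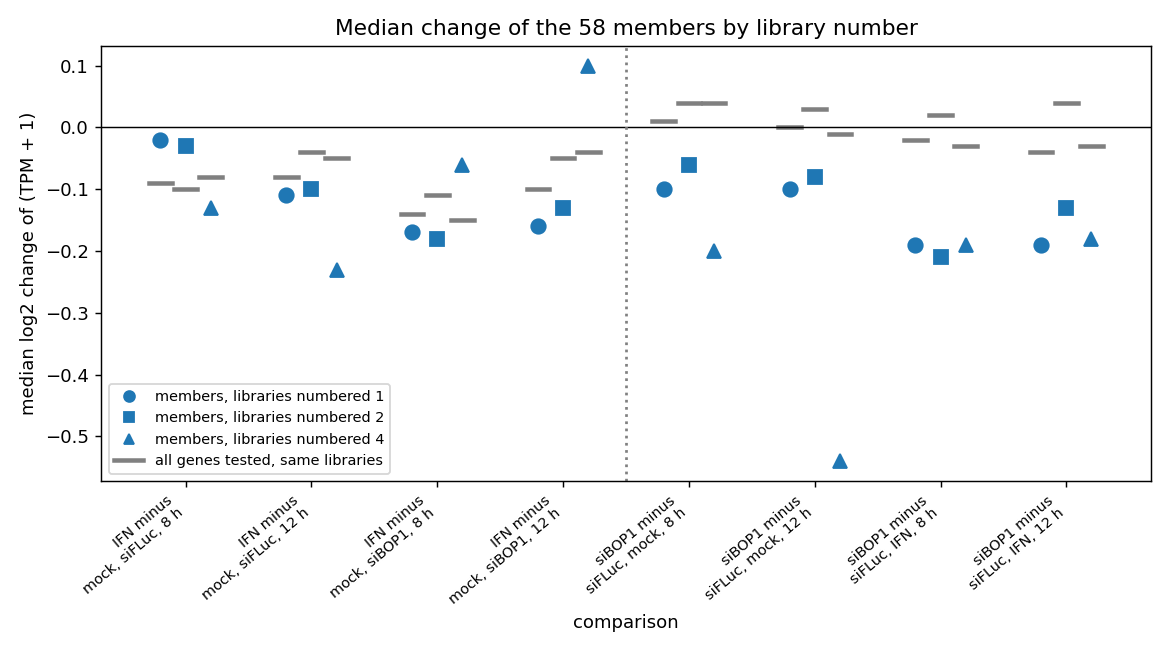
Median log2 change of (TPM + 1) in each comparison, separately for the libraries numbered 1, 2 and 4 (circle, square, triangle) for the 58 members; grey bars give the median of all 16062 genes in the same libraries. For siBOP1 the members' median is below 0 for each number in every comparison, with the lowest value, -0.54, for number 4 in mock cells at 12 h, and for IFN in siBOP1 cells at 12 h number 4 lies above 0.

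Whether IFN acted differently in the knockdown, or differently at 12 h than at 8 h, was tested as interactions. No member was called. Over all genes the calls were 0% for the siRNA by IFN interaction at both times, 0.00623% (1 gene) for the time by IFN interaction in siFLuc cells and 0% in siBOP1 cells. At an unadjusted p under 0.05 the counts of members were 0, 0, 1 and 1, against 2.20%, 1.61%, 3.58% and 3.75% of all genes. With 3 libraries a group the standard errors of these differences were large. The largest at 8 h were RIOK2, a pre-40S kinase, at -0.69 (SE 0.51) and PWP2 at -0.59 (SE 0.38). At 12 h they were RIOK2 at -0.37 and UTP3 at 0.37, where UTP3 gave -0.11 without the siFLuc IFN library numbered 4 and -0.03 without the siBOP1 mock library numbered 4. UTP3 was low in every 12 h library numbered 4, at 17.4 and 9.03 TPM in siFLuc mock and IFN cells and at 11.7 and 13.8 TPM in siBOP1 mock and IFN cells. The 12 h libraries numbered 1 and 2 were at 24.8 to 29.5 TPM. For time by IFN, the largest were RIOK1 (-0.51) and UTP23 (0.39) in siFLuc cells and PWP2 (0.81, SE 0.38) and UTP23 (0.46) in siBOP1 cells. With the libraries numbered 1 and 2 only, the PWP2 value was -0.06.

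Other genes of the same pathway, 22 further 40S factors, gave 0, 2, 2 and 1 lower and 0, 0, 0 and 1 higher calls with IFN. These are 0%, 9.09%, 9.09% and 9.09% of them, beside 10.8%, 13.5%, 15.1% and 14.8% of all genes, with few genes behind each share. In siFLuc cells at 12 h the count was 1 without the mock and 3 without the IFN library numbered 4. With siBOP1 they gave 1, 2, 2 and 0 lower and 0, 0, 1 and 0 higher calls, without the block, which are 4.55%, 9.09%, 13.6% and 0% beside 2.16%, 1.60%, 2.005% and 0.660% of all genes. The 2 calls in mock cells at 12 h became 0 without the siFLuc mock library numbered 4. Their siBOP1 medians were -0.03, -0.10, -0.06 and -0.06. RPS19BP1, a nucleolar partner of a small subunit protein, went from 126 ± 13.3 to 84.7 ± 10.5 TPM with IFN in siFLuc cells at 12 h (log2 change -0.57, limma adjusted p = 0.00407, n = 3 each; 0.0236 and 0.00264 without either library). CSNK1E, a kinase of pre-40S particles, had the next lowest mean IFN change, -0.21, and NOP9 the highest, 0.24. The small subunit ribosomal proteins, which the 58 factors assemble on 18S rRNA, gave 3, 11, 1 and 8 lower and 0 higher calls of 32 with IFN. These are 9.38%, 34.4%, 3.12% and 25%, beside the same shares of all genes, so that the share lay above that of all genes at 12 h and below it at 8 h. In siFLuc cells at 12 h the count was 10 without the mock and 8 without the IFN library numbered 4. Differences between the lists were not tested. RPS7 went from 1768 ± 100.4 to 1157 ± 29.1 TPM in siFLuc cells at 12 h (log2 change -0.61, limma adjusted p = 0.000914, n = 3 each), and the adjusted p was 0.00169 and 0.00347 without either library. RPS15 had the highest mean IFN change, 0.01. With siBOP1, 4, 2, 2 and 1 of 32 were called lower (12.5%, 6.25%, 6.25% and 3.12%, beside the same shares of all genes), with medians of -0.19, -0.14, -0.11 and -0.08. Many ribosomal protein genes have pseudogenes, so their levels are uncertain to that extent.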

How the data were processed

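Polyadenylated RNA of 24 A549 libraries was measured by RNA sequencing with a kit that keeps strand, per the labels' protocols. The authors deposited 1 table of TPM values, a length-scaled share of a fixed total, for 60609 genes, each column summing to 1000000. The aligner, counter, genome build and strand setting are not given in the sources used here. Sequencing depth cannot be read from TPM, and intervals for counting error are therefore left out. Of the 24 columns, 16 match a numbered label and 8, numbered 4, match a group only.

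Values were analysed as log2(TPM + 1) for 16062 genes that reached 1 TPM in 3 or more columns. limma 3.58.1 (R 4.3.3) fitted 8 group means to all libraries with a trended prior, for 12 comparisons, with Benjamini-Hochberg adjustment over all genes and a threshold of 0.05. It was tested on simulated data. Gene positions are from GENCODE 29 and promoters from RefSeq (GRCh38.p14). The column number was used as a replicate block in an alternative fit, because same-numbered columns deviated together from their group means, correlating at r = 0.115 to 0.508 in every pair. For numbers 1 and 2 alone r was -0.012 to 0.156. Other alternatives were another pseudocount, other filters, other scalings, fewer groups and leaving out each library.

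Genes are named for the lowest or highest mean changes over the IFN or siBOP1 comparisons (over all members and by role for IFN), the largest interactions, the highest and lowest levels, calls where at most 5 members were called, and membership of the U3 snoRNP. Members called with the block and those shown in the text beyond this rule were chosen after their values were seen. The members and lists were chosen with earlier results of these data known. 1 gene that the rule names is not reported here.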

Additional observations from a re-analysis of the deposited data

How the results depend on the processing

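Depth is unknown, so counting error of low members cannot be separated from other spread, and with 3 libraries a group 1 library often decides a call. The counts of members called without the block (IFN in siFLuc cells 2 at 8 h and 1 at 12 h, in siBOP1 cells 1 and 2; siBOP1 0 and 2 in mock, 1 and 0 in IFN cells) moved as follows, and the cause was not tested. With the replicate block they were 4, 16, 10 and 6 for IFN and 4, 13, 13 and 4 for siBOP1. In fits added after the data were seen, the replicate block without the siFLuc mock library numbered 4 gave 9 for IFN in siFLuc 12 h and 5 for siBOP1 in mock 12 h, and without the siFLuc IFN one 9 for IFN and 0 for siBOP1 in IFN 12 h. With the libraries numbered 1 and 2 only they were 4, 8, 8 and 11 for IFN and 1, 1 and 3 for siBOP1 in mock 8 h, mock 12 h and IFN 8 h; with the replicate block added they were 11, 11 and 15 for IFN in siFLuc 12 h, siBOP1 8 h and siBOP1 12 h, and 2, 6 and 3 for siBOP1 in mock 8 h, IFN 8 h and IFN 12 h. Median-of-ratios rescaling gave 0 for IFN in siFLuc 8 h and 1 in siBOP1 12 h, and 2, 3 and 1 for siBOP1 in mock 8 h, IFN 8 h and IFN 12 h. Under it the median change was 0.02 and 0.01 for IFN at 8 h in siFLuc and siBOP1 cells and -0.16 for siBOP1 in IFN cells at 8 h, where quantile normalization also gave -0.16. Quantile normalization gave 6 and 6 calls for IFN at 12 h and 3, 4, 3 and 2 for siBOP1. Without the filter the counts were 0 for IFN in siFLuc 12 h and siBOP1 8 h and 1 for siBOP1 in mock 12 h, and with a mean of at least 5 TPM 2 for IFN in siFLuc 12 h. A fit restricted to the compared groups gave 1 and 0 for IFN in siFLuc cells, 2 in siBOP1 cells at 8 h, and 0 for siBOP1 in mock 12 h and in IFN 8 h.

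Leaving out 1 library at a time gave these ranges. For IFN the calls were 0 to 1 and the median -0.12 to -0.01 (siFLuc 8 h), 0 to 3 and -0.23 to 0.01 (siFLuc 12 h), 0 to 1 and -0.19 to -0.11 (siBOP1 8 h), and 1 to 3 and -0.17 to -0.04 (siBOP1 12 h). For siBOP1 they were 0 and -0.17 to -0.06 (mock 8 h), 0 to 2 and -0.32 to -0.06 (mock 12 h), 0 to 1 and -0.24 to -0.14 (IFN 8 h), and 0 to 1 and -0.25 to -0.06 (IFN 12 h). For the time by IFN interaction the median ran from -0.16 to 0.07 in siFLuc and from -0.06 to 0.11 in siBOP1 cells, with 0 calls. For the siRNA by IFN interaction it ran from -0.14 to -0.02 at 8 h and from -0.09 to 0.14 at 12 h, with 0 calls.

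Of 1488 values of named members under alternatives, 1323 kept direction and side of the threshold, 75 passed it newly, 53 lost it and 37 turned sign. With median-of-ratios rescaling DIMT1 (IFN, siBOP1 8 h) was at 0.00, RIOK1 (IFN, siFLuc 8 h) at 0.08 and RRP7A (IFN, siFLuc 8 h) at 0.07. RIOK1 was also at 0.03 with quantile normalization. With libraries 1 and 2 only, with and without the replicate block, RIOK1 was at 0.11, RRP7A at 0.04, TSR3 (siBOP1, IFN 12 h) at 0.05 and PWP2 (time by IFN, siBOP1) at -0.06. Without 1 library, these values changed sign at one end of their range. For IFN they ran from -0.09 to 0.12 for RIOK1 (0.05 in another fit), -0.24 to 0.03 for HEATR1, -0.09 to 0.11 for RRP7A (0.00 and 0.03 in 2 others) and -0.01 to 0.12 for UTP6 in siFLuc cells at 8 h. At 12 h in siFLuc cells they ran from -0.33 to 0.01 for UTP11, -0.05 to 0.22 for RRP7A (-0.02 in another) and -0.03 to 0.45 for UTP6. In siBOP1 cells at 12 h they ran from -0.01 to 0.17 for DHX37 and -0.02 to 0.16 for DDX52 (0.00 in another). For siBOP1 in mock cells they ran from -0.02 to 0.10 at 8 h and -0.03 to 0.11 at 12 h for TSR3, and -0.02 to 0.04 at 12 h for TSR2 (0.00 in another). In IFN cells at 12 h they ran from -0.35 to 0.03 for RRP9, -0.37 to 0.00 for WDR43, -0.09 to 0.04 for TSR3 and -0.01 to 0.20 for DDX49, which ran from -0.04 to 0.21 at 8 h. The 12 h interaction of UTP3 ran from -0.11 to 0.67 (-0.03 in another).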
